A study of Mus musculus with 9 samples.

Results

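The genes described here encode the NF-kB subunits (Rela, Rel, Relb, Nfkb1 and Nfkb2), kinases of the pathway (Ikbkb, Chuk, Ikbke and Map3k14) and a kinase scaffold (Ikbkg). They were taken by gene symbol from the deposited count table, and 10 of 10 were found among its 52208 genes. The study sequenced RNA of 66cl4 mouse mammary carcinoma cells in 9 libraries, 3 biological replicates in each of 3 groups. In the scramble group a control hairpin (SCR) was combined with Empty Vector. In the knockdown group a hairpin against Eya3 (shEya3), which encodes a transcriptional coactivator and phosphatase, was combined with Empty Vector. In the add-back group shEya3 was combined with IKK2-SE, an always-active version of the Ikbkb product. Cells of every group were kept in puromycin and selected by mCherry. Each comparison with scramble rests on 1 Eya3 hairpin, which the sample titles call KD2 and the table's columns KD3. No group combined the scramble hairpin with IKK2-SE.

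In the canonical pathway, receptors for tumour necrosis factor, interleukin-1 and microbial products activate a complex of the kinases IKK2 (Ikbkb) and IKK1 (Chuk) held by the scaffold NEMO (Ikbkg). The complex marks IkB inhibitors for destruction and frees dimers of RelA, c-Rel and the short form made from Nfkb1. In the non-canonical pathway the kinase NIK (Map3k14) accumulates, activates IKK1 and triggers processing of the Nfkb2 precursor, which holds RelB until it is cut. Ikbke encodes an IKK-related kinase that works with Tbk1 towards interferon genes. Several of these genes, among them Nfkb1, Nfkb2, Rel and Relb, are known NF-kB targets themselves. Activity of the pathway is set mainly by phosphorylation, proteolysis and nuclear entry, none of which RNA counts measure.

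Promoter sequences are shown for the subunits because the kappa-B element is the letter pattern through which NF-kB subunits act on their own genes. RefSeq promoter windows (GRCm38.p6, 250 bases before to 50 after a start) matched 7 of the 10 members: Rela, Rel, Nfkb2, Ikbkg, Chuk, Map3k14 and Ikbke. The kappa-B consensus was searched on both strands, and overlapping matches were merged into 1 site. Below are the 120 bases before the first listed start of each subunit with a window, 5′ to 3′ on the gene's strand, with matches in capitals. They cover chr19:46304617-46304736 (plus strand) for Nfkb2, chr11:23770970-23771089 (minus strand) for Rel and chr19:5637421-5637540 (plus strand) for Rela.
Nfkb2: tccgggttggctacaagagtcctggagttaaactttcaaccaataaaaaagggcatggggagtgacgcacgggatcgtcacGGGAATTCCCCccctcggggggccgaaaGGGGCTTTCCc
Rel: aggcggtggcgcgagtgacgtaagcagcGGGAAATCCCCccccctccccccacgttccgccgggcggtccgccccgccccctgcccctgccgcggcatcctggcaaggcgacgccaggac
Rela: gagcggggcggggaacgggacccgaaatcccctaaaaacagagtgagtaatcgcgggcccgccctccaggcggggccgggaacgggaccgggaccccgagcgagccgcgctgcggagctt
Nfkb2 held 4 distinct matches over its 3 windows, of which those beginning 39 and 11 bases before the first start are printed. Rel held 1, beginning 92 bases before its start, and the windows of the other 5 members held none. Of all genes with a window, 9.55% had a match. A match describes letters in a window and not binding.

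The libraries held 63601403 to 81534534 counts, and 16766 genes with enough counts were tested with edgeR's quasi-likelihood test, with p-values adjusted over all of them. Every member was tested, and single-library counts ran from 599 for Ikbke to 37697 for Nfkb2. Levels are CPM (counts divided by the TMM-scaled library size, on the usual per-megaread scale), changes are log2 fold changes ± SE, and a gene was called at an adjusted p below 0.05. Whether the replicate cultures were transduced separately is not in the labels, and p-values measure only the spread between them. In bulk RNA, fewer cells of a type and less RNA per cell cannot be told apart. Eya3 was at 60.9 to 64.1 CPM in the scramble, 24.3 to 25.3 CPM in the knockdown and 24.7 to 29.0 CPM in the add-back libraries. As for the labelled carcinoma cells, the epithelial genes Epcam and Cdh1 had at most 5 and 8 counts in any library, while the keratin gene Krt8 averaged 628 CPM (scramble), 1329 CPM (knockdown) and 1073 CPM (add-back) and differed in all 3 comparisons. The 6 epithelial markers, nearly all of it Krt8, summed to 596 to 649, 1254 to 1388 and 1029 to 1106 CPM in the libraries of these groups. In the knockdown cells Krt14 fell from 1.24 to 0.305 CPM, Krt5 rose from 0.045 to 0.320 CPM, and Krt18 was not called. Krt14 was also lower in add-back (0.120 CPM) than in scramble cells. The 4 mesenchymal markers, all above 1 CPM, summed to 3892 to 4302, 5737 to 6323 and 4567 to 5090 CPM. Of these, Vim (2767 to 3811 CPM), Fn1 (1108 to 1893 CPM) and Zeb1 rose and Cdh2 fell in the knockdown cells, and Vim and Cdh2 fell between knockdown and add-back cells. None of 8 leukocyte markers reached 1 CPM in any group, with summed levels of 0.155 to 0.479 CPM. The 4 endothelial markers summed to 4.32 to 5.10, 0.213 to 0.459 and 0.622 to 0.971 CPM. This was mostly Cdh5 (means of 4.36, 0.226 and 0.634 CPM), which was called in all 3 comparisons, whereas Pecam1 was called in none (edgeR adjusted p = 0.0988, 0.731 and 0.321) and Kdr and Tek were too low to test. The 4 fibroblast markers, mostly Pdgfra, summed to 50.6 to 53.0, 39.7 to 44.0 and 44.2 to 46.1 CPM. Pdgfra and Col1a1 fell and Dcn rose in the knockdown cells, and Lum was too low to test. The part of these markers in the members' changes was not tested.

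**Figure D1:**
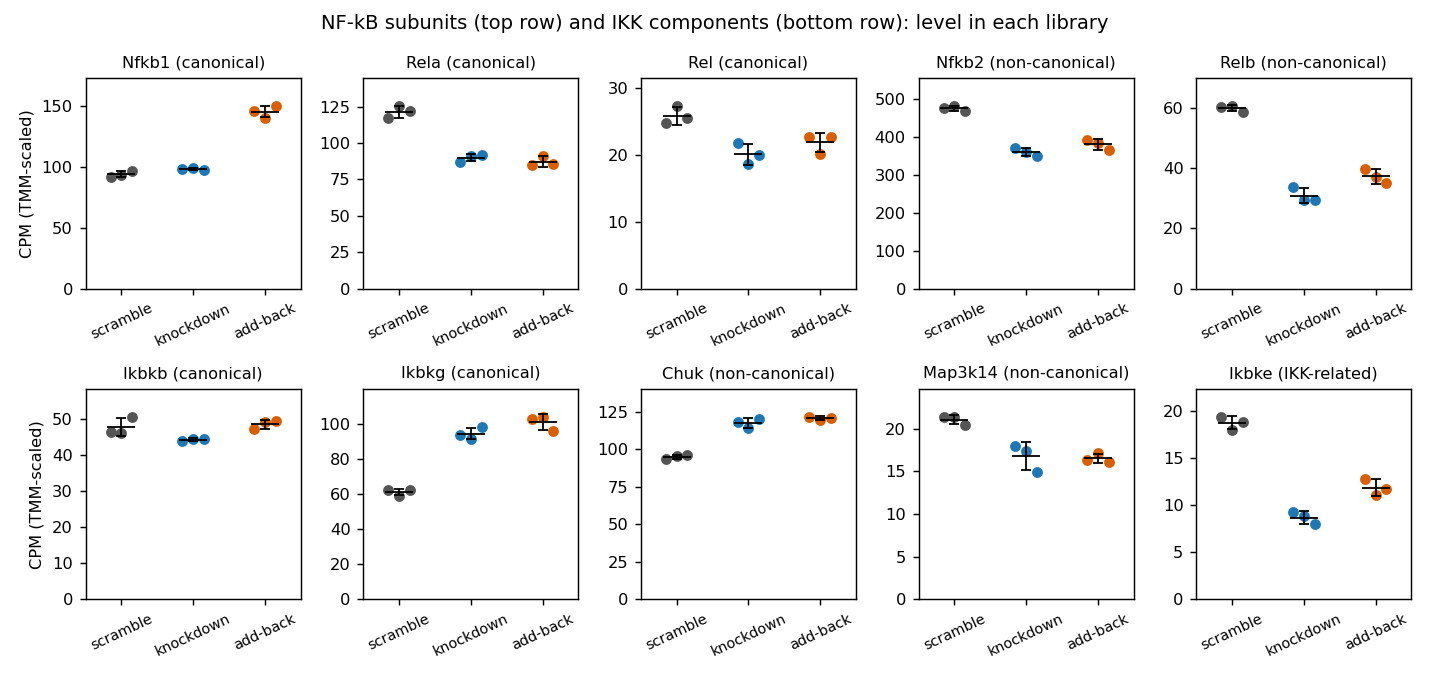
Level of each member in CPM (vertical axes, each from 0) in the 3 scramble, 3 knockdown and 3 add-back libraries (points), with the mean and SD (bars). The top row holds the subunits and the bottom row the IKK components. Nfkb1 is the only subunit whose add-back libraries (141 to 150 CPM) lie above those of both other groups.

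Levels between genes were compared per kilobase of the longest annotated protein-coding transcript. In the scramble cells Nfkb2 was the most abundant member at 124 ± 1.86 CPM per kilobase (SD, n = 3), followed by Rela at 44.7 ± 1.59. Chuk (27.13 ± 0.33) and Relb (27.03 ± 0.47) overlapped between libraries. They were followed by Nfkb1 at 22.9 ± 0.64, Ikbkb at 12.01 ± 0.64 and Ikbkg at 8.76 ± 0.25. Ikbke (5.77 ± 0.21), Map3k14 (4.96 ± 0.12) and Rel (3.47 ± 0.18) were lowest, and these 3 did not overlap with each other. Nfkb2 thus made up 55.8% ± 0.52 of the summed per-kilobase level of the 5 subunits, Rela 20.2% ± 0.49, Relb 12.2% ± 0.16, Nfkb1 10.3% ± 0.35 and Rel 1.56% ± 0.06 (SD, n = 3).

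The order changed below Nfkb2. In the knockdown cells Chuk (33.6 ± 0.88 CPM per kilobase) and Rela (33.1 ± 0.85) came next and overlapped, then Nfkb1 (23.9 ± 0.18), then Relb (13.95 ± 1.11) and Ikbkg (13.5 ± 0.46), which overlapped. In the add-back cells Nfkb1 (35.4 ± 1.18) and Chuk (34.5 ± 0.31) overlapped and both lay above Rela (32.1 ± 1.31). The share of Nfkb1 among the subunits was 14.3% ± 0.22 in the knockdown and 19.0% ± 0.97 in the add-back cells. That of Relb was 8.31% ± 0.51 and 9.04% ± 0.41, and that of Nfkb2 56.0% ± 0.62 and 53.1% ± 0.79 (SD, n = 3). These levels depend on the transcript length assumed. Over all annotated exons, a length chosen as an alternative after the data were seen, the scramble level was 104 CPM per kilobase for Nfkb2, 39.5 for Rela, 18.7 for Chuk and 15.4 for Relb, but 7.80 for Nfkb1 and 2.50 for Ikbkb, whose annotated exons sum to 12061 and 19078 bases. With that length the order in the add-back cells turned round, with Rela at 28.4, Chuk at 23.8 and Nfkb1 at 12.1 CPM per kilobase, and in the knockdown cells Rela (29.3) lay above Chuk (23.1). The lowest scramble levels were reordered too, with Rel (3.47) above Map3k14 (3.22), Ikbkb (2.50) and Ikbke (2.08). The share of Nfkb1 was then 4.59% ± 0.16, 6.43% ± 0.10 and 8.88% ± 0.50 (SD, n = 3) in scramble, knockdown and add-back, lower in each group than with the coding transcript but in the same order.

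Knockdown was set against scramble to ask which members differ when Eya3 is low. Of the 10 members, 6 fell (Rela, Rel, Relb, Nfkb2, Map3k14 and Ikbke), 2 rose (Ikbkg and Chuk), and Nfkb1 and Ikbkb did not pass the test. In this comparison 57.5% of all tested genes were called, 27.7% as higher and 29.9% as lower, so calls were common and the members' count says little by itself. The members' median change was -0.35, against 0.00 over all tested genes. For all 10 members the 3 libraries of one group lay apart from the 3 of the other, which was so for 63.6% of all tested genes.

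Among the canonical subunits, Rela, which encodes the main transactivating subunit, was at 117, 126 and 122 CPM in the scramble libraries and 87.3, 90.9 and 91.6 CPM in the knockdown libraries. Every knockdown library was lower, and Rela fell by 0.43 ± 0.04 (edgeR adjusted p = 1.52e-07). Rel, the c-Rel gene, was at 24.8, 27.4 and 25.5 CPM with the scramble hairpin and 21.7, 18.6 and 20.1 CPM with the Eya3 hairpin. It fell by 0.36 ± 0.07 (edgeR adjusted p = 0.000233). Nfkb1, the gene of the precursor whose short form pairs with RelA, gave 91.9, 93.4 and 97.1 CPM in the scramble and 98.7, 99.0 and 97.6 CPM in the knockdown libraries. The groups were close, the highest scramble library lay just below the lowest knockdown library, and the difference of 0.06 ± 0.04 did not pass (edgeR adjusted p = 0.159).

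The non-canonical subunits both fell. Relb had the larger change of the pair, from 60.0, 60.5 and 58.6 CPM in the scramble libraries to 33.6, 29.5 and 29.3 CPM in the knockdown libraries. This was a fall by 0.95 ± 0.06, or 1.94-fold (edgeR adjusted p = 6.55e-10). Nfkb2, the gene of the precursor that holds RelB, went from 476, 483 and 468 CPM to 372, 361 and 350 CPM. It fell by 0.40 ± 0.04 (edgeR adjusted p = 1.43e-07), a change of the size seen for Rela.

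Among the kinases and their scaffold, the genes moved in different directions. Ikbkg was at 62.2, 59.2 and 62.3 CPM in the scramble and 93.6, 91.8 and 98.05 CPM in the knockdown libraries, well apart. It rose by 0.63 ± 0.04, or 1.54-fold (edgeR adjusted p = 3.14e-09). Chuk, whose kinase acts in both pathways, stood at 95.02 ± 1.148 CPM and 117 ± 3.07 CPM (SD, n = 3) and rose by 0.31 ± 0.03 (edgeR adjusted p = 1.23e-06). Ikbkb had 46.6, 46.1 and 50.7 CPM in the scramble and 43.8, 44.6 and 44.6 CPM in the knockdown libraries. Its difference of -0.11 ± 0.05 did not pass (edgeR adjusted p = 0.0532), but it passed without scramble replicate 2 (0.0487), with a minimum of 1 CPM in 3 libraries (0.0441) and with library totals as the scaling (0.00852). Over 16 alternatives its adjusted p ran from 0.00852 to 0.284.

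Map3k14, the NIK gene, averaged 21.1 ± 0.52 CPM with SCR and 16.8 ± 1.63 CPM with shEya3 (SD, n = 3) and fell by 0.33 ± 0.07 (edgeR adjusted p = 0.000599). Ikbke had the largest change of the 10 members in this comparison. Its scramble libraries gave 19.4, 18.0 and 18.8 CPM and its knockdown libraries 9.28, 8.83 and 7.96 CPM, without overlap. It fell by 1.11 ± 0.08, or 2.16-fold (edgeR adjusted p = 2.51e-09).

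**Figure D2:**
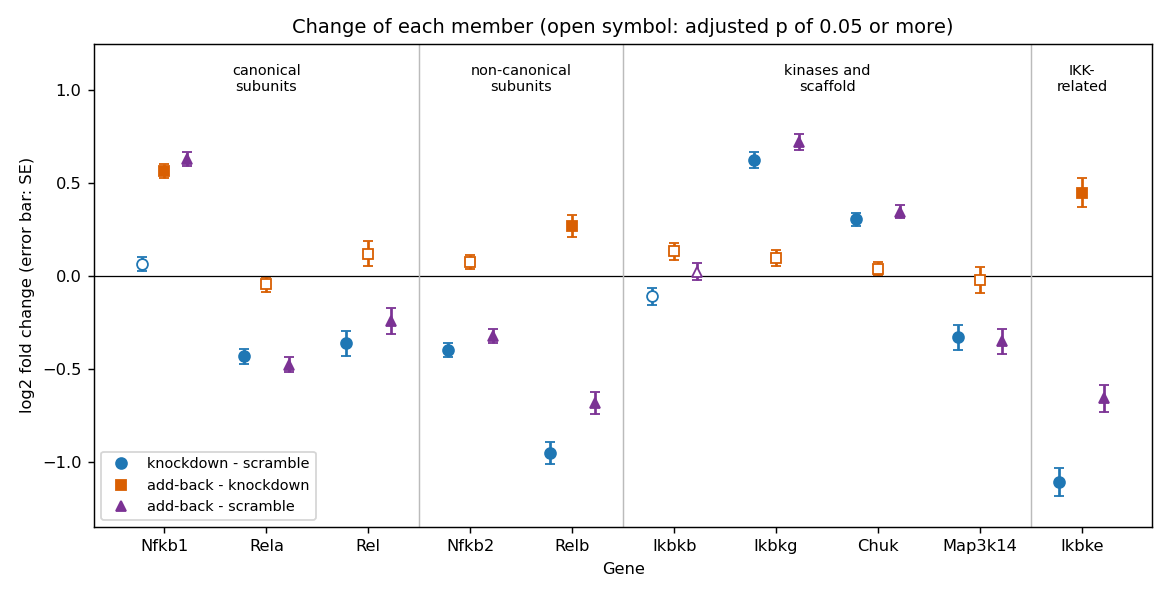
Log2 fold change of each member (vertical axis, with SE) for knockdown against scramble (circles), add-back against knockdown (squares) and add-back against scramble (triangles). Filled symbols passed an adjusted p of 0.05: 8, 3 and 9 of the 10 members, against 57.5%, 10.4% and 55.8% of all tested genes. Relb and Ikbke lie below 0 in the first comparison and above 0 in the second.

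Add-back was set against knockdown to ask which members differ with active IKK2 on the shEya3 background. Nfkb1, Relb and Ikbke rose, none fell and 7 members did not pass. In this comparison 10.4% of all tested genes were called, 5.61% as higher and 4.82% as lower. With library totals as the scaling, 65.9% of all called genes were higher, against 53.8% here. The members' median change was 0.11, against 0.00 over all tested genes. Libraries of the 2 groups did not overlap for 4 members, the 3 that rose and Ikbkb, and for 24.7% of all tested genes.

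Nfkb1 showed the largest rise, to 146, 141 and 150 CPM in the add-back libraries from 98.7, 99.0 and 97.6 CPM in the knockdown libraries. All 3 add-back libraries also lay above all scramble libraries. The change was 0.56 ± 0.04, or 1.48-fold (edgeR adjusted p = 3.03e-08). Relb gave 39.7, 37.0 and 34.9 CPM with IKK2-SE, above the knockdown libraries (29.3 to 33.6 CPM) and below the scramble libraries (58.6 to 60.5 CPM). It rose by 0.27 ± 0.06 (edgeR adjusted p = 0.00624). Ikbke gave 12.8, 11.1 and 11.8 CPM, likewise between the other groups, and rose by 0.45 ± 0.08 (edgeR adjusted p = 0.000984).

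Nfkb2 gave 391, 385 and 365 CPM with IKK2-SE and overlapped with the knockdown range of 350 to 372 CPM (0.08 ± 0.04, edgeR adjusted p = 0.265). Rel, at 22.7, 20.2 and 22.8 CPM, also overlapped with the knockdown libraries (0.12 ± 0.07, edgeR adjusted p = 0.344). Rela differed by -0.04 ± 0.04, Ikbkg by 0.10 ± 0.04, Chuk by 0.04 ± 0.03 and Map3k14 by -0.02 ± 0.07, and these did not pass either (edgeR adjusted p = 0.615, 0.188, 0.57 and 0.91). Map3k14 changed sign in 3 of the 16 alternatives.

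Ikbkb itself, the mouse gene of the kinase that the vector supplies in active form, gave 47.1, 49.2 and 49.4 CPM with IKK2-SE, all above the 43.8 to 44.6 CPM of the knockdown libraries. The difference of 0.13 ± 0.05 did not pass (edgeR adjusted p = 0.0809). It passed without scramble replicate 3 (0.0489) and with library totals (0.0362), and its adjusted p ran from 0.0243 to 0.197 over 16 alternatives. The labels do not give the species or sequence of the IKK2-SE insert, and whether its reads were counted under Ikbkb was not tested.

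Set against scramble, the add-back cells differed in 9 of the 10 members, where 55.8% of all tested genes were called, 27% as higher and 28.7% as lower. Libraries did not overlap for 9 members and for 61.1% of all tested genes. Nfkb1, Ikbkg and Chuk were higher, by 0.63 ± 0.04, 0.72 ± 0.04 and 0.35 ± 0.03 (edgeR adjusted p = 4.82e-10, 5.45e-10 and 3.15e-07). The lower genes were Relb, which fell by 0.68 ± 0.06, Ikbke by 0.66 ± 0.07, Rela by 0.48 ± 0.04, Map3k14 by 0.35 ± 0.07, Nfkb2 by 0.32 ± 0.04 and Rel by 0.24 ± 0.07. The call of Rel (edgeR adjusted p = 0.00622) was lost without scramble replicate 2 (0.0503). Ikbkb differed by 0.02 ± 0.05 (edgeR adjusted p = 0.682). Relb and Ikbke were called in opposite directions in the knockdown and add-back comparisons, 2 of 10 members against 6.22% of all tested genes. Those comparisons share the knockdown libraries, so the count is not independent evidence for either.

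The arms were then set against each other within libraries, where scaling cancels, by dividing Relb by Rela, Nfkb2 by Nfkb1 and Chuk by Ikbkb. No ratio was taken for Map3k14. The log2 ratio of Relb to Rela counts was -0.96, -1.05 and -1.06 in the scramble libraries, -1.38, -1.63 and -1.64 in the knockdown libraries and -1.10, -1.30 and -1.29 in the add-back libraries. Relb was thus lowest relative to Rela in the knockdown cells, and the 3 groups did not overlap. The mean ratio differed by -0.53 between knockdown and scramble and by 0.32 between add-back and knockdown. Over all 3 groups an exact permutation test gave p = 0.00357, the smallest that 1680 assignments of the libraries allow, or 0.00536 adjusted over the 3 ratios.

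The precursor genes behaved differently. The log2 ratio of Nfkb2 to Nfkb1 was 2.34 ± 0.06 in the scramble, 1.88 ± 0.04 in the knockdown and 1.39 ± 0.09 in the add-back cells (SD, n = 3). It was lower in each of these groups than in the one before, by 0.46 and 0.49, with no overlap of libraries (exact permutation p = 0.00357, adjusted 0.00536). The lower ratio in the knockdown cells went with the fall of Nfkb2, and the lower ratio in the add-back cells with the rise of Nfkb1. For the kinases, the log2 ratio of Chuk to Ikbkb was 0.99 ± 0.07, 1.41 ± 0.04 and 1.31 ± 0.05 (SD, n = 3). Both hairpin groups lay above scramble (exact permutation p = 0.00714 over the 3 groups, also after adjustment), while the add-back and knockdown libraries overlapped (difference -0.09, two-sided exact permutation p = 0.2). Whether reads of the IKK2-SE insert entered the Ikbkb counts of the add-back libraries, and so this ratio, was not tested. For a pair of groups with 3 libraries each, the exact test cannot go below 0.1, which every other pairwise difference of these ratios reached.

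**Figure D3:**
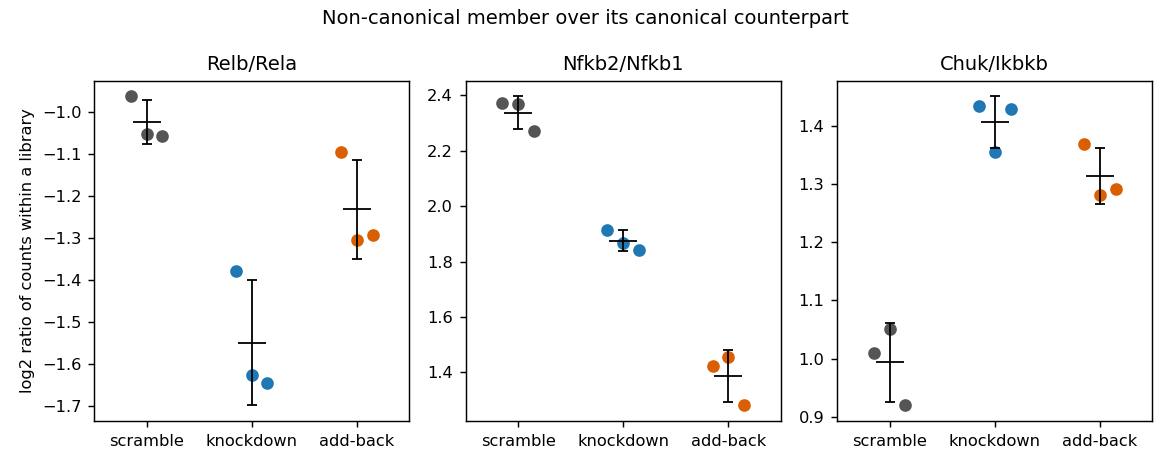
Log2 ratio of the counts of a non-canonical member to its canonical counterpart within each library (points; mean and SD as bars; axes do not start at 0). Relb/Rela is lowest in the knockdown libraries, Nfkb2/Nfkb1 is lower in the knockdown and lower again in the add-back libraries, and Chuk/Ikbkb is higher in both hairpin groups than in scramble. Whether reads of the IKK2-SE insert were counted under Ikbkb was not tested.

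By arm, the 5 canonical members (Rela, Rel, Nfkb1, Ikbkb and Ikbkg) numbered 1 higher and 2 lower in the knockdown cells, with a median change of -0.11. The 4 non-canonical members (Relb, Nfkb2, Chuk and Map3k14) numbered 1 higher and 3 lower, with a median of -0.36. Between add-back and knockdown cells each arm had 1 called member, Nfkb1 and Relb, and the medians were 0.12 and 0.06. Of all tested genes, 27.7% were called higher and 29.9% lower in the knockdown cells, and 5.61% and 4.82% between add-back and knockdown cells. Chuk was counted as non-canonical although its kinase acts in both pathways, so the split depends on that choice. The counts of the arms were not tested against each other.

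The tested genes nearest to each member, 20 on each side, were examined next. Around Nfkb1 (chromosome 3, 135584655 to 135691547, minus strand, GRCm38/mm10) the 40 nearest tested genes had a median change of 0.53 in the knockdown cells, and 33 of them rose at least as far as the 0.06 of Nfkb1. Around Rela (chromosome 19, 5637483 to 5648130, plus strand) the median was -0.21, and 15 of 40 neighbours fell at least as far as Rela. Around Relb (chromosome 7, 19606217 to 19629438, minus strand) 13 of 40 did so, although the median was only -0.11. Nfkb2 (chromosome 19, 46304320 to 46312385, plus strand), Ikbkg (chromosome X, 74393290 to 74453854, plus strand) and Ikbke (chromosome 1, 131254343 to 131279606, minus strand) had neighbours with medians of 0.02, -0.06 and 0.09, of which 3, 2 and 3 of 40 changed as far in the same direction as the member.

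Between add-back and knockdown cells the neighbours' medians lay between -0.02 and 0.03 for all 10 members, and 1 of the 40 neighbours of Nfkb1 and 4 of those of Ikbke rose as far as the member. For Relb 13 of 40 neighbours did so, with a median of 0.03. The part of a regional shift in the single changes was not tested. The remaining members were Rel (chromosome 11, 23736847 to 23770970, minus strand), Ikbkb (chromosome 8, 22659212 to 22706589, minus strand), Chuk (chromosome 19, 44073335 to 44107480, minus strand) and Map3k14 (chromosome 11, 103219762 to 103267472, minus strand).

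**Figure D4:**
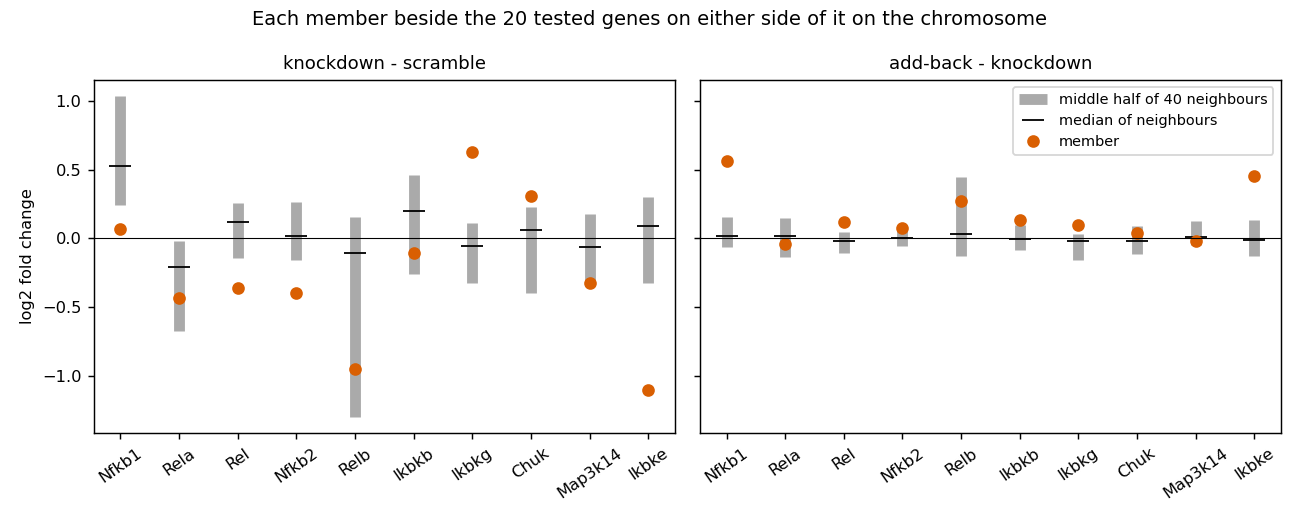
Log2 fold change of each member (orange points) beside the median (black line) and interquartile range (grey bar) of the 40 nearest tested genes on its chromosome, for knockdown against scramble (left) and add-back against knockdown (right). On the left the neighbours of Nfkb1 have a median of 0.53 and Nfkb1 lies below them, and on the right Nfkb1 and Ikbke lie above neighbours whose medians are near 0.

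Some members share exons with other genes, and whether reads were counted by strand is not given in the sources used here. Ikbkg shares 418 bases with G6pdx on the opposite strand, the gene of the first enzyme of the pentose phosphate pathway. G6pdx averaged 266 ± 10.1 CPM with SCR and 129 ± 6.82 CPM with shEya3 (SD, n = 3) and fell by 1.05 ± 0.05 while Ikbkg rose. Nfkb2 shares 531 bases (11.6% of its exons) with AC114539.1, a noncoding gene on the opposite strand not analysed here, and 299 bases with Psd, which had 734 to 1240 counts per library, against at least 25567 for Nfkb2. The antisense genes that overlap Ikbke had at most 7 counts in any library. Map3k14 shares 135 bases with the noncoding gene 1700028N14Rik on the same strand, which had at most 2 counts in any library. The part of shared reads in the members' changes was not tested.

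The other genes of the pathway were grouped by role. Of 54 tested genes in 5 lists, 15 were higher and 32 lower in the knockdown cells (87.0%, against 57.5% of all tested genes), with a median of -0.19. Between add-back and knockdown cells 14 were higher and 2 lower (29.6%, against 10.4%), with a median of 0.06. Over all tested genes the shares called higher and lower were 27.7% and 29.9% in the knockdown cells. Between add-back and knockdown cells they were 5.61% and 4.82%.

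The inhibitors and the factors of their turnover were mostly lower with shEya3, 11 of 13, against 29.9% of all tested genes. Their median was -0.48. Btrc, a ubiquitin ligase subunit that recognizes marked IkB, was higher (0.64 ± 0.05). Nfkbia, the IkB gene that NF-kB itself induces, had mean levels of 221 CPM (scramble), 44.3 CPM (knockdown) and 110 CPM (add-back). It fell by 2.32 ± 0.04 and rose by 1.31 ± 0.04 in the 2 comparisons. Bcl3, a nuclear IkB family member, fell by 3.01 ± 0.11 and rose by 1.12 ± 0.11, and Nfkbie fell by 1.63 ± 0.07 and rose by 0.54 ± 0.07. Nfkbiz, another nuclear member, rose by 1.46 ± 0.06 in the add-back cells to 44.1 CPM, above the 18.2 CPM of the scramble cells. Its call as lower in the knockdown cells (-0.19 ± 0.06, edgeR adjusted p = 0.0191) was lost without scramble replicate 1 (0.105) or 2 (0.069) or knockdown replicate 1 (0.0633) or 2 (0.091). In all, 6 of the 13 rose between add-back and knockdown cells and none fell, against 5.61% and 4.82% of all tested genes.

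Of 22 tested canonical inputs, 12 were lower and 7 higher in the knockdown cells (against 29.9% and 27.7% of all tested genes). Their median was -0.17. Among the higher ones, Il1r1 barely passed (0.32 ± 0.13, edgeR adjusted p = 0.049). Its call was lost without scramble replicate 1 (0.2) or 2 (0.0694) or knockdown replicate 2 (0.0777) or 3 (0.286), and under other alternatives. Card10, a scaffold that links receptors to the IKK complex, fell by 3.20 ± 0.06, from 61.8 to 6.72 CPM, and was at 5.78 CPM in the add-back cells. Il1rap, the accessory chain of the interleukin-1 receptor, fell by 1.55 ± 0.10, and Tlr2, a receptor for bacterial lipopeptides, by 1.04 ± 0.10. Between add-back and knockdown cells 4 rose and the adaptor Traf6 was called lower (-0.20 ± 0.06, edgeR adjusted p = 0.049). That call was lost without scramble replicate 1 (0.0608) or 2 (0.0764), knockdown replicate 1 (0.209) or 2 (0.0889), or add-back replicate 1 (0.0787) or 3 (0.213), and with library totals (0.0773). Tlr2 rose by 1.05 ± 0.10, back to 9.15 CPM against 9.12 CPM in the scramble cells, the interleukin-1 receptor gene Il1r1 by 0.62 ± 0.13 and the adaptor Myd88 by 0.27 ± 0.06. The rise of Il1rap (0.38, edgeR adjusted p = 0.0247) was lost without knockdown replicate 1 (0.1) or add-back replicate 3 (0.0975). Tnf, the classical ligand, had at most 4 counts in any library.

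The non-canonical inputs were split. Of 18 listed, 8 were too low to test: Tnfsf12, Tnfsf14, Tnfsf11, Ltb, Cd40lg, Tnfrsf11a, Tnfrsf13c and Birc3, with at most 26 counts in a library. Among the 10 tested, Otud7b, Tnfrsf12a, Tnfsf13b and Lta rose and Traf2, Traf3, Ltbr and Cd40 fell in the knockdown cells, with a median of 0.03. Over all tested genes 27.7% rose and 29.9% fell. Lta, Cd40 and Tnfsf13b had at most 39 counts in any library. The call of Traf2 (-0.20, edgeR adjusted p = 0.0189) was lost without scramble replicate 1 (0.0625) or knockdown replicate 2 (0.0581) or 3 (0.0922). Traf3, the adaptor that directs NIK to degradation, fell by 0.83 ± 0.05 from 65.0 to 36.7 CPM, whereas Otud7b, a deubiquitinase that protects Traf3, rose by 0.66 ± 0.04. Tnfrsf12a, the receptor for the ligand TWEAK, rose by 0.65 ± 0.04 to 301 CPM. Between add-back and knockdown cells Tnfrsf1b, Traf3 and Tnfsf13b rose. Tnfrsf1b, a receptor for tumour necrosis factor, rose by 0.50 ± 0.07, from 48.9 to 69.0 CPM. The other calls were weaker. Traf3 (0.16, edgeR adjusted p = 0.0339) was lost without knockdown replicate 2 (0.0853) or 3 (0.125) or add-back replicate 2 (0.124). Tnfsf13b, at 0.128 and 0.375 CPM (edgeR adjusted p = 0.0253), was lost without any 1 of the knockdown replicates (0.0935, 0.0782 and 0.0804) or without add-back replicate 1 (0.167).

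Partners of the IKK-related kinases moved in the direction of Ikbke in the knockdown cells, where Tank, Tbk1, Irf3, Azi2 and Tbkbp1 were all called lower, with a median of -0.57. Over all tested genes 29.9% were called lower. Tank, a scaffold of these kinases, fell by 0.78 ± 0.08, the kinase gene Tbk1 by 0.57 ± 0.05 and Irf3, the transcription factor they phosphorylate, by 0.49 ± 0.06. The call of Azi2 (-0.13, edgeR adjusted p = 0.0246) was lost without scramble replicate 1 (0.14) or knockdown replicate 2 (0.093) or 3 (0.0731). Of these 5, only Tbk1 was called higher with IKK2-SE than with Empty Vector (0.18 ± 0.05, edgeR adjusted p = 0.0377), and this was lost on leaving out scramble replicate 2 (0.0554), or 1 of knockdown replicates 1 (0.14) and 3 (0.0871) or of add-back replicates 2 (0.0895) and 3 (0.135). Tank missed it at 0.26 ± 0.08 (edgeR adjusted p = 0.0625), and passed on leaving out replicate 3 of scramble (0.0412) or of knockdown (0.0172), or replicate 1 of add-back (0.0293).

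Of the chaperones that fold the IKK kinases and the scaffold Erc1, 3 of 4 were higher in the knockdown cells. That was so for 27.7% of all tested genes. Hsp90ab1 rose by 0.83 ± 0.04, from 4760 to 8442 CPM, and Hsp90aa1 by 0.26 ± 0.04. The third, Cdc37 (0.12 ± 0.04, edgeR adjusted p = 0.0129), was lost without knockdown replicate 2 (0.0671) and with library totals (0.105). Between add-back and knockdown cells Hsp90ab1 fell by 0.16 ± 0.04 (edgeR adjusted p = 0.0161), a call lost without knockdown replicate 2 (0.11) or 3 (0.0505) or add-back replicate 1 (0.0751).

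**Figure D5:**
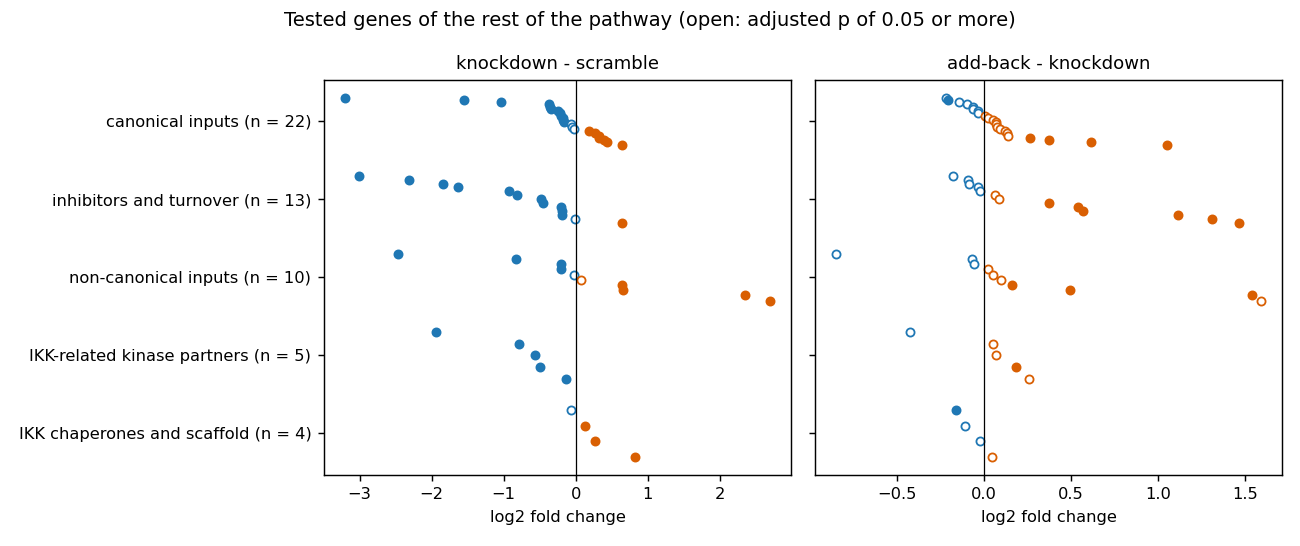
Log2 fold change (horizontal axes, of different range) of the tested genes of the rest of the pathway, for knockdown against scramble (left) and add-back against knockdown (right). Each point is a gene, orange above 0 and blue below, filled where the adjusted p was below 0.05. Of 13 inhibitors and turnover genes 11 were called lower on the left, and 6 rose on the right. Over all tested genes 29.9% and 5.61% did so.

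The genes whose course over the 9 libraries was closest to that of each subunit were found from the root mean square difference of log2 CPM, each centred on its mean, among tested genes whose log2 CPM averaged 1 or more. For Nfkb1 they were Csf1, the macrophage growth factor gene (0.045), and the ion transporter gene Slc12a2 (0.049). Mean levels of Csf1 were 398 CPM (scramble), 400 CPM (knockdown) and 614 CPM (add-back), flat and then higher like Nfkb1. Closest to Relb were Fanca (0.058), a gene of DNA crosslink repair, and Fam149a (0.059). Rela was matched by Trim8 (0.023) and Tubg1 (0.030), Nfkb2 by Tmem134 (0.025) and Sptan1 (0.026), and Rel by Pofut1 (0.041) and Akr1b3 (0.048). These are descriptions of likeness over 9 libraries, and no test was made of them.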

How the data were processed

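The deposited table holds raw counts, 1 whole number per gene symbol and library, which the authors did not normalize. The submitters' processing notes name FastQC, MultiQC, STAR and mm10. For the counter, its annotation and whether it used strand, the sources used here give nothing. Columns were matched to samples by arm and replicate number. Replicates within a group differed by more than sampling noise (chi-square per degree of freedom 3.74 to 19.8).

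Genes were kept with filterByExpr by group (minimum count 10, minimum total 15), then TMM-scaled. Robust quasi-likelihood fits (edgeR 4.0.16, R 4.3.3) used all 9 libraries and a group term, leaving 6 residual degrees of freedom, with Benjamini-Hochberg adjustment. Tested on simulated data, it made more false calls than the nominal rate and missed most of the smallest changes, so single calls near the threshold are uncertain. For the knockdown comparison the simulation changed 50 of 16404 genes at each fold size, far fewer than were called in the real data. Its rates therefore need not hold here. SE is the log2 change divided by the square root of F. Lengths and positions came from GENCODE vM21 (GRCm38), which matched 97.1% of tested genes. Alternatives used limma 3.58.1, DESeq2 1.42.0, other scaling and filters, the replicate number as a block, only the compared groups, and single libraries left out. Ratios took no pseudocount.

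The members and lists were chosen with earlier results of these data known. Named genes were Eya3, the members, of each list the 3 genes with the smallest adjusted p in each of the first 2 comparisons, and the 2 closest genes to each subunit. Other genes were named after their values were seen.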

Additional observations from a re-analysis of the deposited data

How the results depend on the processing

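For the members, 469 of the values under the alternatives kept their direction and side of the threshold, 7 passed that had not (all Ikbkb), 1 was lost (Rel, add-back against scramble) and 3 changed sign. The sign changes were of Map3k14 between add-back and knockdown cells, at 0.0049 with library totals and from -0.099 to 0.032 with 1 library left out. Called members numbered 8 to 9, 3 to 4 and 8 to 9 in the 3 comparisons, and called genes of the other pathway lists 40 to 47, 13 to 22 and 34 to 40. Among the other named genes, the uncalled differences that changed sign were Csf1 in knockdown against scramble (-0.04001 with library totals, -0.015 to 0.038 with 1 library left out), Tubg1 in add-back against knockdown (0.012 with library totals, -0.037 to 0.0042 with 1 left out) and Tlr2 in add-back against scramble (-0.014 with library totals, -0.073 to 0.079 with 1 left out).

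The labels give each group replicates 1 to 3 without saying what a number shares. Deviations of same-numbered libraries correlated at -0.011 to 0.123, over 0.1 in 1 of 9 pairs, and those of different numbers at -0.081 to 0.046. Of 9 libraries, 5 were closest to their own number. The main fit left the number out, and whether it marks a shared factor was not tested. With the replicate block, 9, 4 and 9 members were called, the added one being Ikbkb (adjusted p = 0.0227 and 0.0243), and 47, 22 and 40 other pathway genes. Calls rose over all genes too: of 16766 tested, the block called 10232, 2678 and 9997, against 9643, 1749 and 9352 without it. The difference in the log2 ratio of Relb to Rela between add-back and knockdown cells ran from 0.25 to 0.40 with 1 library left out. Counts of 599 or more per member make counting error small, and the 3 libraries per group limit the precision.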
